A study of Arabidopsis thaliana with 128 samples.

Results

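The 31 genes described here are nuclear genes for subunits of the 2 photosystems of Arabidopsis thaliana, together with those for the antenna proteins of photosystem I and the minor antenna proteins of photosystem II. The rule that picks them uses gene identifiers and no measured value, and they are 31 of the 28775 genes in the deposited table of RNA abundance. Photosystem I (PSI) has 16 of them, 4 antenna genes and 12 core genes. The antenna genes are LHCA1 (AT3G54890), LHCA2 (AT3G61470), LHCA3 (AT1G61520) and LHCA4 (AT3G47470). The core genes are PSAD-1 (AT4G02770), PSAD-2 (AT1G03130), PSAE-1 (AT4G28750), PSAE-2 (AT2G20260), PSAF (AT1G31330), PSAG (AT1G55670), PSAH-1 (AT3G16140), PSAH-2 (AT1G52230), PSAK (AT1G30380), PSAL (AT4G12800), PSAN (AT5G64040) and PSAO (AT1G08380). Photosystem II (PSII) has 15, of which 5 are minor antenna genes, LHCB4.1 (AT5G01530), LHCB4.2 (AT3G08940), LHCB4.3 (AT2G40100), LHCB5 (AT4G10340) and LHCB6 (AT1G15820). A further 5 code for extrinsic proteins of the oxygen-evolving complex, PSBO1 (AT5G66570), PSBO2 (AT3G50820), PSBP-1 (AT1G06680), PSBQ-1 (AT4G21280) and PSBQ-2 (AT4G05180). The other 5 are PSBR (AT1G79040), PSBS (AT1G44575), PSBW (AT2G30570), PSBX (AT2G06520) and PSBY (AT1G67740). All 31 were tested in every comparison below.

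As background, photosystem II uses light to take electrons from water, and photosystem I uses light to pass them from plastocyanin to ferredoxin. The reaction-centre proteins of both are encoded in the plastid, while most of the antenna and peripheral subunits are encoded in the nucleus, made in the cytosol and imported, so their mRNAs meet the decay machinery of the cytoplasm. Several of these subunits have a pair of nuclear genes for nearly the same protein.

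The study followed mRNA decay in whole seedlings 5 d old, grown in constant light at 22 °C on 0.5X medium with sucrose, after vacuum infiltration with 1 mM cordycepin, an adenosine analogue that stops transcription. Each of 4 genotypes was sampled with 4 biological replicates at 0 min, then at 7.5, 15 and 30 min, and then at 60, 120, 240 and 480 min, and each replicate was a pool of 50 to 60 seedlings per genotype. VARICOSE (VCS) is the scaffold of the mRNA decapping complex and SUPPRESSOR OF VARICOSE (SOV) is a cytoplasmic exoribonuclease of the DIS3L2 type. The genotypes, as the labels spell them, are VCS SOV (Col-0 [SOV-L.er]), here WT, in which the accession Col-0 carries an SOV transgene from L.er; sov (aka Col-0), which is Col-0 itself with its natural sov mutation; vcs (vcs-7 [SOV-L.er]), the vcs-7 mutant with the same transgene; and vcs sov (aka vcs-7), the vcs-7 mutant without it. Thus vcs against WT sets vcs-7 apart with SOV present, and vcs sov against sov does so without it. The level of SOV mRNA also differed within both comparisons, as given below. All groups shared the same age and growth conditions, and the labels do not say whether the 0 min seedlings had been infiltrated.

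Reads assigned to genes ran from 11.5 to 37.3 M per library, and the values below are RPM computed over the 28496 nuclear genes (nuclear RPM), since nuclear genes took from 37.0 to 76.5% of the reads. At 0 min that share averaged 49.1% in WT, 51.3% for sov, 63.2% for vcs and 73.5% in vcs sov. A count of 3 reads was worth 0.124 to 0.572 nuclear RPM, far under every member at 0 min. LHCB4.3, the lowest of them, still had 19.6 nuclear RPM and 215 reads in its lowest 0 min libraries. VCS itself averaged 135 nuclear RPM in WT, 130.1 for sov, 7.11 for vcs and 12.4 in vcs sov at 0 min, and SOV averaged 202, 41.0, 818 and 248. The labels record a corrected exchange of tubes between vcs and vcs sov at 60 min, replicate 3; the library now labelled vcs sov there had 9.18 for VCS and 163.5 for SOV, and that labelled vcs had 4.25 and 494. The labels call the replicates biological and say no more of how they were kept apart, so p-values measure the spread between these samples. In bulk samples, fewer cells of a type and less RNA per cell cannot be told apart.

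Of the paralog pairs, LHCB4.1 with LHCB4.2 and PSAD-1 with PSAD-2 moved apart most between vcs and WT, as given below, and the 250 bases before the annotated start of these 4 genes are shown for that reason. The coding sequences of LHCB4.1 and LHCB4.2 are identical at 81.9% of aligned bases, with a longest identical run of 23 bases, and those of PSAD-1 and PSAD-2 at 88.0%, with a longest run of 35. All 4 are nuclear protein-coding genes, LHCB4.1 at chr5:208866-210548 and LHCB4.2 at chr3:2717557-2718923 on the plus strand, and PSAD-1 at chr4:1229031-1230164 and PSAD-2 at chr1:753307-754262 on the minus strand. Sequences are from RefSeq TAIR10.1, written 5′ to 3′ on the gene's strand, from chr5:208616-208865 for LHCB4.1, chr3:2717307-2717556 for LHCB4.2, chr4:1230165-1230414 for PSAD-1 and chr1:754263-754512 for PSAD-2. Capitals mark matches, on either strand, to the G-box (CACGTG), the I-box (GATAAG), the CCAAT box (CCAATC) or the evening element (AAATATCT), motifs known from light- and clock-regulated plant genes.
LHCB4.1: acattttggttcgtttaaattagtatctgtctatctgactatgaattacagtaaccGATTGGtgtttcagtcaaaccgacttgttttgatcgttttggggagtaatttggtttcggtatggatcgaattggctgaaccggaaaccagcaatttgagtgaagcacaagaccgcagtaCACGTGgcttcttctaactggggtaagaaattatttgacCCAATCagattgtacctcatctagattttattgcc
LHCB4.2: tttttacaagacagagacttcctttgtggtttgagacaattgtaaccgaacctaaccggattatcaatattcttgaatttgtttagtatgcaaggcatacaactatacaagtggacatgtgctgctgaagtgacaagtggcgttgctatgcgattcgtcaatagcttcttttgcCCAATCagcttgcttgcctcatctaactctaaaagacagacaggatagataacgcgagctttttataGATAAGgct
PSAD-1: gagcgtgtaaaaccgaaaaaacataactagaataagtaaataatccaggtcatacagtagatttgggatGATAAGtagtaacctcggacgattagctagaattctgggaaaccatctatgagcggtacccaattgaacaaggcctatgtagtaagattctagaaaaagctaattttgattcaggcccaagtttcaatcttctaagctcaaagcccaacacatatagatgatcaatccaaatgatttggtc
PSAD-2: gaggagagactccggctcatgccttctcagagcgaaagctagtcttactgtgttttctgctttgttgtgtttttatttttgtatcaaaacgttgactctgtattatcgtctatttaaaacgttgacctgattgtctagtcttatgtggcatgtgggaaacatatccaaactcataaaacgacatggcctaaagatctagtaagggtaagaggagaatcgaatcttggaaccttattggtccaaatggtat
LHCB4.1 has a G-box 74 bases before the start and CCAAT boxes 35 and, on the opposite strand, 194 bases before it. LHCB4.2 has a CCAAT box 76 bases and an I-box 9 bases before the start, PSAD-1 has an I-box 181 bases before it, and PSAD-2 has none of the 4 motifs. Across the members, 7 of 31 windows (22.6%) hold a G-box, against 6.49% of the 27437 windows of this length before all annotated starts. An I-box is in 8 (25.8% against 12.3%), a CCAAT box in 6 (19.4% against 10.2%) and the evening element in 0 (against 4.79%), and 18 (58.1% against 70.3%) hold none of the 4. In the windows shown no match overlaps another. These are matches of letters and not measured binding sites.

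In WT at 0 min the 31 genes together took 4.66 ± 0.249% (SD, n = 4) of nuclear reads, 2.19 ± 0.158% for PSI and 2.47 ± 0.119% for PSII. The share of all 31 was 4.93 ± 0.727% for sov, 2.71 ± 0.217% for vcs and 2.12 ± 0.184% for vcs sov. PSBO1 had 3874, 3807, 3696 and 3755 nuclear RPM in WT replicates 1 to 4, 4138, 4214, 3707 and 3514 in those of sov, 2713, 2742, 2638 and 2992 in those of vcs and 1835, 2068, 2218 and 2091 in those of vcs sov. PSBO1, the main gene for the manganese-stabilising protein of the oxygen-evolving complex, had the highest WT mean of the members, and all its vcs and vcs sov libraries lay below all its WT and sov libraries. LHCB4.3 had 55.2, 56.2, 54.9 and 50.2 nuclear RPM in WT replicates 1 to 4, 32.7, 41.1, 53.5 and 66.8 in those of sov, 19.6, 20.8, 21.0 and 24.8 in those of vcs and 28.4, 37.6, 26.2 and 24.2 in those of vcs sov. LHCB4.3, an isoform of the minor antenna protein CP29, had the lowest WT mean; its 4 WT libraries lay close together, while its sov libraries spread over more than the WT range on both sides.

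Per transcript length, the authors' deposited table of RPKM values (1 value per genotype at 0 min, so without SD) put PSBR at 1690.3, PSBO1 at 1259 and LHCB5 at 1027 in WT, at the top of the members, and PSAE-2 at 192 and LHCB4.3 at 19.9 at the bottom. In the authors' deposited table, LHCB4.1 stood at 562 RPKM in WT, 649.5 for sov, 448 for vcs and 439.9 in vcs sov, and LHCB4.2 at 362, 377, 59.2 and 139. On that scale the authors' deposited table has PSAD-1 at 516, 575, 385 and 394, and PSAD-2 at 328, 419, 84.2 and 136. In both pairs the second gene was nearer to the first in WT than in vcs.

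**Figure D1:**
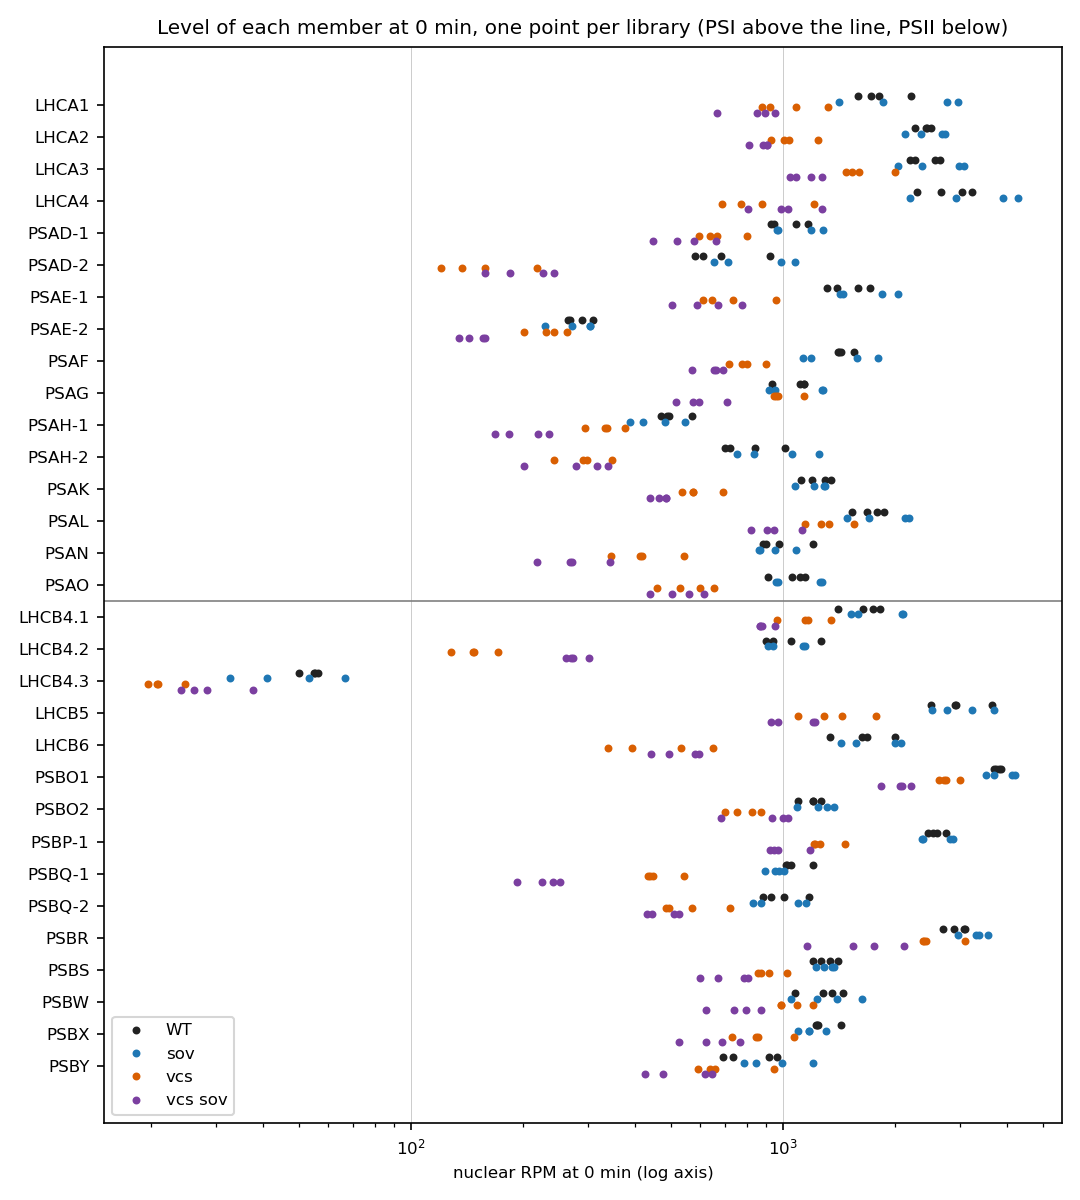
Nuclear RPM (log axis) of each of the 31 genes in the 16 libraries at 0 min, 1 point per library, coloured by genotype. PSBO1 is at 3696 to 3874 in WT and LHCB4.3 at 50.2 to 56.2; the vcs points of LHCB4.2, 129 to 172, stand apart from its WT points, 904 to 1268.

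With SOV present, most of these mRNAs were lower in the vcs-7 background at 0 min. In vcs against WT, 27 of 31 members were lower and 0 higher at an adjusted p under 0.05 (limma on log2(nuclear RPM + 0.5), Benjamini-Hochberg adjustment over 19343 genes), where 13.1% of all tested genes were lower and 36.3% higher. Their median difference was −0.82 on the log2 scale, against +0.17 over all tested genes. PSI had 15 of 16 lower with a median of −0.89, and PSII 12 of 15 with a median of −0.60. By role, 4 of 4 PSI antenna genes were lower (median −1.0), 11 of 12 PSI core genes (−0.89), 5 of 5 PSII minor antenna genes (−1.31), 5 of 5 oxygen-evolving genes (−0.82) and 2 of 5 other PSII genes (−0.27). On RPM as deposited, without the nuclear scaling, 17 were lower and 0 higher, and 5 members changed sign, PSAE-2 (0.093), which had been called lower, and the 4 that did not pass, PSAG, PSBR, PSBW and PSBY. The share of higher among all calls was 73.5% on nuclear RPM, 93.3% on deposited RPM and 43.3% when libraries were centred on the nuclear median.

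LHCB4.2 had 904, 1268, 944 and 1055 nuclear RPM in WT replicates 1 to 4, 1133, 1148, 942 and 915 in those of sov, 147, 148, 129 and 172 in those of vcs and 262, 273, 302 and 270.2 in those of vcs sov. LHCB4.2, a gene for CP29, had the largest decrease, with a log2 difference of −2.80 (SE 0.12, adjusted p = 6.07e-12) in limma. Its vcs libraries lay below its vcs sov libraries, and both lay far below WT and sov without overlap. PSAD-2 had 682, 581, 612 and 924 nuclear RPM in WT replicates 1 to 4, 1082, 987, 713 and 656 in those of sov, 219, 121, 158 and 138 in those of vcs and 185, 159, 243 and 228 in those of vcs sov. PSAD-2, for a stromal subunit at the ferredoxin docking side of PSI, differed by −2.15 (SE 0.20, adjusted p = 3.82e-07) in limma, with both vcs-7 genotypes below both others in every library. LHCB6 had 1344, 2009, 1685 and 1636 nuclear RPM in WT replicates 1 to 4, 2006, 2076, 1577 and 1438 in those of sov, 339, 534, 394 and 649 in those of vcs and 494, 581, 595 and 444 in those of vcs sov. LHCB6, for the minor antenna protein CP24, differed by −1.83 (SE 0.18, adjusted p = 5.09e-07) in limma, and its WT and vcs libraries did not overlap. LHCA4, a PSI antenna gene, PSAH-2, of the light-harvesting complex docking region, and LHCB4.3 followed, at −1.68, −1.47 and −1.31.

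The 4 members that did not pass were PSAG, PSBR, PSBY and PSBW. PSAG had 1144, 1143, 934 and 1116 nuclear RPM in WT replicates 1 to 4, 1282, 1277, 955 and 919.8 in those of sov, 1142, 946, 973 and 962 in those of vcs and 595, 518, 711 and 576 in those of vcs sov. The WT and vcs libraries of PSAG, a peripheral PSI subunit near the antenna, overlapped, and its difference was −0.11 (SE 0.13, adjusted p = 0.507) in limma, with a sign that turned on deposited RPM, and its vcs sov libraries lay below all others. PSBR had 3091, 2696, 3076.4 and 2886 nuclear RPM in WT replicates 1 to 4, 3369, 3571, 3312 and 2966 in those of sov, 3083, 2404, 2424 and 2382 in those of vcs and 1160.2, 1549, 1762 and 2123 in those of vcs sov. PSBR, a PSII protein linked to the oxygen-evolving complex, showed the same order, with 1 vcs library as high as WT and a difference of −0.20 (SE 0.14, adjusted p = 0.269) in limma. PSBY had 965, 736, 692 and 919 nuclear RPM in WT replicates 1 to 4, 1209, 998, 789.5 and 848 in those of sov, 946, 592, 658 and 639 in those of vcs and 476, 426, 618 and 646 in those of vcs sov. PSBY and PSBW, both low-mass PSII proteins, differed by −0.23 (SE 0.17, adjusted p = 0.275) and −0.27 (SE 0.14, adjusted p = 0.104) in limma. All WT libraries stood above all vcs libraries for 26 members, where 11.8% of all tested genes did so; the other 5 were PSAG, PSAL, PSBR, PSBW and PSBY. The calls of PSAL (−0.38, SE 0.13, adjusted p = 0.0232 in limma) and PSAE-2 (−0.27, SE 0.10, adjusted p = 0.0373 in limma) did not hold without some single libraries: the adjusted p in limma reached 0.0808 for PSAL without vcs replicate 2 and 0.136 for PSAE-2 without vcs replicate 3.

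Markers of tissues and cell types were read in the same libraries. At 0 min the summed level of 4 shoot mesophyll markers (RBCS1A, RBCS2B, CA1 and RCA) was 30478 to 37711 nuclear RPM in WT, 31770 to 38868 for sov, 27220 to 39001 for vcs and 11859 to 17193 in vcs sov. In vcs against WT, 3 of these 4 were lower. RBCS1A, the largest part of the sum, was the other, with a mean of 19830 nuclear RPM in WT and 22280 in vcs. Stomatal lineage markers summed to 29.5 to 36.7 in WT, 34.8 to 47.0 for sov, 34.2 to 43.1 for vcs and 14.6 to 22.1 in vcs sov, and root markers to 79.6 to 92.4, 72.9 to 96.5, 85.5 to 99.9 and 98.0 to 127. No listed marker was at 0 reads in any 0 min library. The part of cell makeup in the members' differences was not tested.

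**Figure D2:**
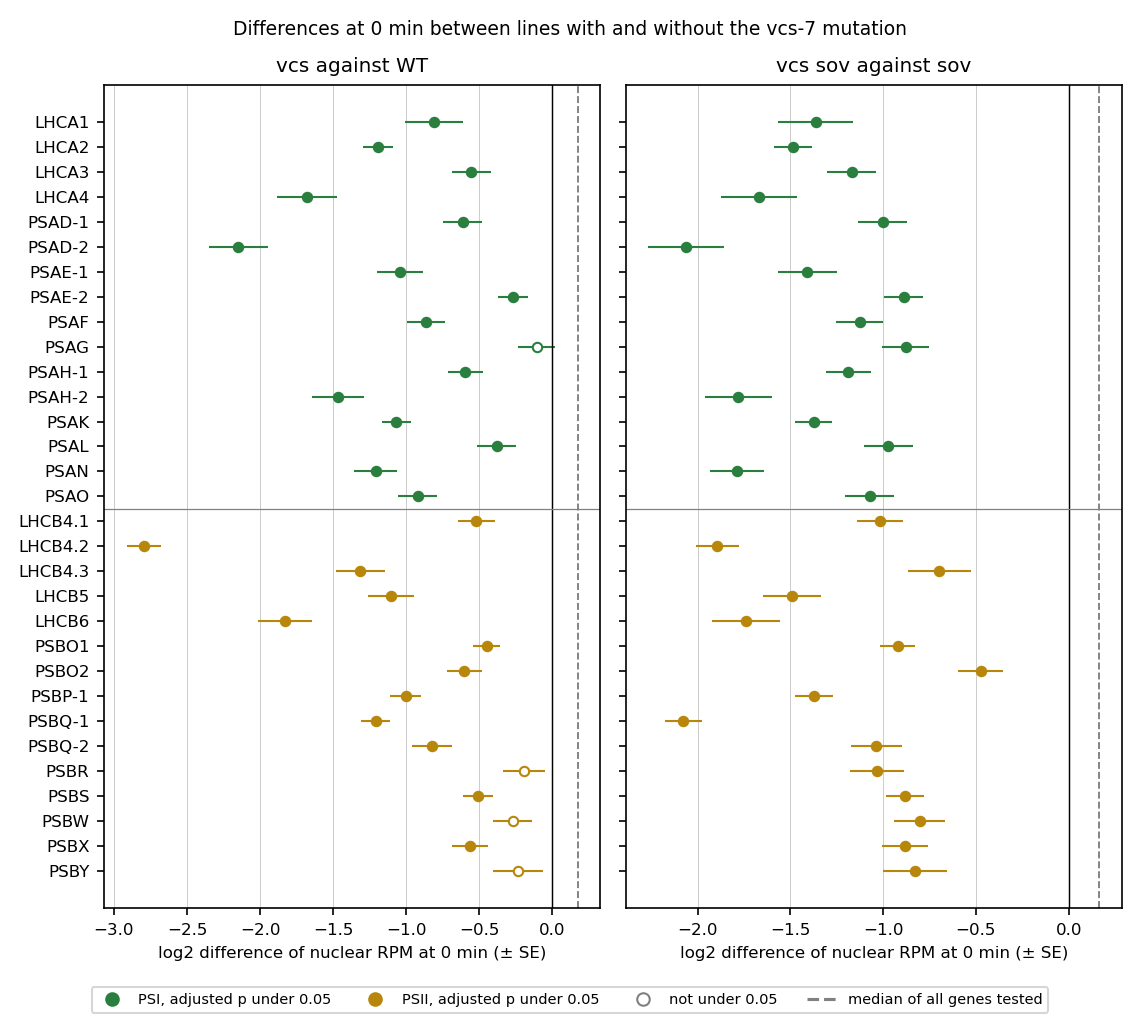
Log2 difference (± SE) in nuclear RPM at 0 min for each member, for vcs-7 with SOV (vcs against WT) and without it (vcs sov against sov). Filled points passed an adjusted p of 0.05 and the dashed line is the median of all tested genes. LHCB4.2 is lowest in vcs against WT (−2.80).

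Without SOV, every member was lower in the vcs-7 background. In vcs sov against sov, 31 of 31 were lower (limma, adjusted p under 0.05), where 27.1% of all tested genes were lower and 42.5% higher, with a median of −1.13 against +0.17 over all tested genes. The median was −1.28 for PSI and −1.02 for PSII, and by role it was −1.43 for the PSI antenna, −1.16 for the PSI core, −1.49 for the PSII minor antenna, −1.04 for the oxygen-evolving proteins and −0.88 for other PSII genes. For 30 members all vcs sov libraries lay below all sov libraries, where 24% of all tested genes did so, and LHCB4.3 was the exception. On deposited RPM PSBO2 changed sign (0.04), and the share of higher among all calls, 61% on nuclear RPM, was 83.8% on deposited RPM and 47.4% after centring.

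PSBQ-1 had 1023, 1206, 1027 and 1051 nuclear RPM in WT replicates 1 to 4, 979, 954, 895 and 1011 in those of sov, 434, 449.6, 439 and 543 in those of vcs and 242, 225, 252 and 193 in those of vcs sov. PSBQ-1, 1 of a pair of genes for an extrinsic protein of the oxygen-evolving complex, had the largest decrease, −2.08 (SE 0.10, adjusted p = 4.91e-12) in limma, and its libraries fell into 3 levels, WT with sov, then vcs, then vcs sov. PSAD-2 differed by −2.06 (SE 0.20, adjusted p = 1.13e-07) and LHCB4.2 by −1.89 (SE 0.12, adjusted p = 1.09e-10) in limma. The smallest decreases were those of PSBO2, LHCB4.3 and PSBW. PSBO2 had 1208, 1098, 1210.1 and 1267 nuclear RPM in WT replicates 1 to 4, 1377, 1315, 1095 and 1246 in those of sov, 872, 756, 700.3 and 829.7 in those of vcs and 682, 938, 1002 and 1032 in those of vcs sov. PSBO2, the second gene for the manganese-stabilising protein, differed by −0.47 (SE 0.12, adjusted p = 0.00199) in limma, with every vcs sov library under every sov library. LHCB4.3 differed by −0.70 (SE 0.17, adjusted p = 0.00142) in limma, its sov libraries reaching down into the vcs sov range. PSBW had 1285, 1454, 1082 and 1361 nuclear RPM in WT replicates 1 to 4, 1632, 1401, 1239 and 1052 in those of sov, 1094, 988, 989 and 1207 in those of vcs and 622, 795, 875 and 740.1 in those of vcs sov. PSBW, known to stabilise PSII supercomplexes, differed by −0.80 (SE 0.14, adjusted p = 3.78e-05) in limma without overlap of the 2 groups.

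At 0 min the mesophyll markers moved the same way as the members here: 4 of 4 were below sov in vcs sov. Of the stomatal markers 4 of 4 tested were lower, and of the root markers 3 of 6 tested were higher and 1 lower; the part of these in the members' decrease was not tested. The authors' deposited table of DESeq2 results, at an adjusted p under 0.05, has 29 members lower in vcs than in WT (not PSAG or PSBR) and 31 below sov in vcs sov. The share of all genes lower in that table was not computed, so these counts have no background beside them.

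Within the vcs-7 background, vcs sov differed from vcs in both directions. In vcs sov against vcs, 17 members were lower and 2 higher (limma, adjusted p under 0.05), where 28.8% of all tested genes were lower and 26.6% higher; the median was −0.36, against −0.016 over all tested genes. On deposited RPM 8 were lower and 4 higher; the share of higher among all calls was 48% on nuclear RPM, 69.4% on deposited RPM and 49% after centring. PSBQ-1 fell most (−1.03, SE 0.10, adjusted p = 1.45e-07 in limma), then PSAG (−0.75, SE 0.13, adjusted p = 7.3e-05) and PSAH-1 (−0.74, SE 0.12, adjusted p = 5.86e-05). Both higher genes code for CP29, LHCB4.2 at 0.90 (SE 0.12, adjusted p = 4.32e-06) and LHCB4.3 at 0.41 (SE 0.17, adjusted p = 0.0492) in limma. Their paralog LHCB4.1, with a higher level than both, went the other way. Its mean was 1158 nuclear RPM in vcs and 893 in vcs sov, without overlap of the libraries. PSAD-2 stood at 0.37 (SE 0.20, adjusted p = 0.131) in limma and did not pass. All vcs sov libraries lay below all vcs libraries for 16 members (23.4% of all tested genes) and above for LHCB4.2 (22.6%). The call of LHCB4.3 was lost in 17 of 25 alternatives, with an adjusted p of 0.173 without vcs sov replicate 2, the highest of its group; those of PSAF and LHCA2 were lost in 16 and 12.

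Whether the vcs-7 difference was the same with and without SOV was tested by the interaction. It passed for 13 of 31 members (41.9%), near the 40.2% of all tested genes that passed either way, so the count is no result about the members. The interaction, (vcs sov − sov) − (vcs − WT), was below 0 for 12 members and above 0 for 1 at an adjusted p under 0.05 in limma, where 21% of all tested genes were below and 19.1% above; on deposited RPM 5 were below and 2 above, and the share above among all calls was 47.6%, and 65.1% on deposited RPM. LHCB4.2 was the member above 0, at 0.90 (SE 0.16, adjusted p = 0.000329) in limma: its decrease was smaller without SOV. The others decreased more without SOV, led by PSBQ-1 (−0.87, SE 0.14, adjusted p = 0.000123), PSBR (−0.84, SE 0.20, adjusted p = 0.00334) and PSAG (−0.77, SE 0.18, adjusted p = 0.00241). They also include the PSI genes PSAE-2, LHCA3, PSAH-1, PSAL and PSAN and the PSII genes PSBW, LHCB4.1, PSBO1 and PSBS. LHCB4.1 and LHCB4.2 thus differed in the sign of this term.

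In sov against WT, 0 members passed in limma, 0 had an unadjusted p under 0.05, and edgeR's quasi-likelihood test on the recovered reads called 0. Of all tested genes 8 passed in limma (0.0414%), 664 had an unadjusted p under 0.05, and edgeR called 1 higher and 6 lower. The 4 sov libraries of PSBQ-1 lay below the 4 of WT, as 0.998% of all tested genes did, with a difference of −0.16 (SE 0.10, adjusted p = 1) in limma. The authors' deposited table also has 0 members past its adjusted p here, and its share over all genes was not computed.

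The paralog pairs show where genes for the same subunit parted. Because gene length cancels only in differences between genotypes, the log2 ratios of nuclear RPM below are compared between genotypes and are given as description. LHCB4.1 had 1643, 1826, 1409 and 1749.5 nuclear RPM in WT replicates 1 to 4, 2102, 2093, 1528 and 1590.4 in those of sov, 1149, 1169, 965 and 1350.1 in those of vcs and 868, 953, 872 and 880.0 in those of vcs sov. LHCB4.1 to LHCB4.2 was 0.67 ± 0.15 (log2, SD, n = 4) in WT, 0.81 ± 0.086 for sov, 2.96 ± 0.034 for vcs and 1.69 ± 0.12 in vcs sov. Of all 7 pairs it moved farthest between vcs and WT, by 2.28, and vcs sov lay between vcs and sov. PSAD-1 had 1089.8, 931, 946 and 1169 nuclear RPM in WT replicates 1 to 4, 1288, 1189, 971 and 968 in those of sov, 803, 597, 666 and 638 in those of vcs and 520.0, 448, 662 and 577 in those of vcs sov. PSAD-1 to PSAD-2 was 0.58 ± 0.16 in WT, 0.38 ± 0.15 for sov, 2.12 ± 0.19 for vcs and 1.44 ± 0.072 in vcs sov, again highest in vcs. LHCB4.1 and PSAD-1 were themselves lower in vcs than in WT, at −0.52 (SE 0.13, adjusted p = 0.00227) and −0.61 (SE 0.13, adjusted p = 0.000919) in limma.

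PSAH-1 had 569.8, 496, 472 and 488 nuclear RPM in WT replicates 1 to 4, 547, 483, 422 and 389 in those of sov, 377, 295, 332 and 338 in those of vcs and 220.2, 184, 235 and 168 in those of vcs sov. PSAH-2 had 841, 724, 701 and 1016 nuclear RPM in WT replicates 1 to 4, 1255, 1059, 838 and 755 in those of sov, 348, 243, 297 and 291 in those of vcs and 317, 201, 339 and 278 in those of vcs sov. PSAH-1 to PSAH-2, genes for a subunit at the docking site of the mobile antenna, was −0.68 ± 0.25 in WT and −1.07 ± 0.11 in sov but 0.19 ± 0.071 for vcs and −0.48 ± 0.25 in vcs sov, also highest in vcs. PSAE-1 had 1592, 1398, 1315 and 1719 nuclear RPM in WT replicates 1 to 4, 2037, 1847, 1453 and 1424 in those of sov, 957, 611, 647 and 736 in those of vcs and 589.9, 505, 671 and 779 in those of vcs sov. PSAE-2 had 288, 309.9, 269 and 266 nuclear RPM in WT replicates 1 to 4, 304, 303, 271 and 229 in those of sov, 232, 243, 202 and 264 in those of vcs and 135, 157, 158 and 144 in those of vcs sov. PSAE-1 to PSAE-2, stromal subunits beside PSAD, was lower in the vcs-7 genotypes, at 1.63 ± 0.31 for vcs and 2.08 ± 0.31 in vcs sov against 2.41 ± 0.23 in WT and 2.60 ± 0.13 in sov.

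PSBQ-2 had 928, 1178, 886 and 1006 nuclear RPM in WT replicates 1 to 4, 1152, 1099, 873 and 832 in those of sov, 494, 571, 487 and 720.0 in those of vcs and 431, 512, 528 and 445 in those of vcs sov. PSBQ-1 to PSBQ-2 was 0.11 ± 0.08 in WT, −0.03 ± 0.24 for sov, −0.27 ± 0.12 for vcs and −1.07 ± 0.17 in vcs sov, so PSBQ-1 lost ground in vcs sov most. PSBO1 to PSBO2 was 1.66 ± 0.10, 1.63 ± 0.11, 1.81 ± 0.12 and 1.18 ± 0.17 in the same order of genotypes, and it too was lowest in vcs sov. LHCB4.3 to LHCB4.1 was −4.93 ± 0.19, −5.27 ± 0.68, −5.74 ± 0.15 and −4.96 ± 0.22, lowest in vcs. Coding identity within the pairs ran from 71.7% (LHCB4.3 and LHCB4.1) to 88.0% (PSAD), and how reads that match both genes were assigned is not given in the sources used here, so a part of a paralog's reads may stand under its partner.

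Summed over members, PSI reads per 100 PSII reads were 88.5 ± 4.89 (SD, n = 4, 84.6 to 95.7) in WT, 92.3 ± 8.15 (82.4 to 99.3) for sov, 77.4 ± 1.42 (75.8 to 79.3) for vcs and 79.7 ± 2.60 (77.01 to 82.9) in vcs sov at 0 min. Every vcs library was thus under every WT library, while the vcs sov and sov ranges overlapped by a narrow margin. With each gene given equal weight, the log2 PSI to PSII ratio in vcs less WT was −0.04, against −0.19 for summed reads. At 480 min the sums were 88.7 ± 5.99 in WT, 93.5 ± 6.82 for sov, 69.4 ± 1.54 for vcs and 75.1 ± 2.68 in vcs sov. This ratio is a description with no test.

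**Figure D3:**
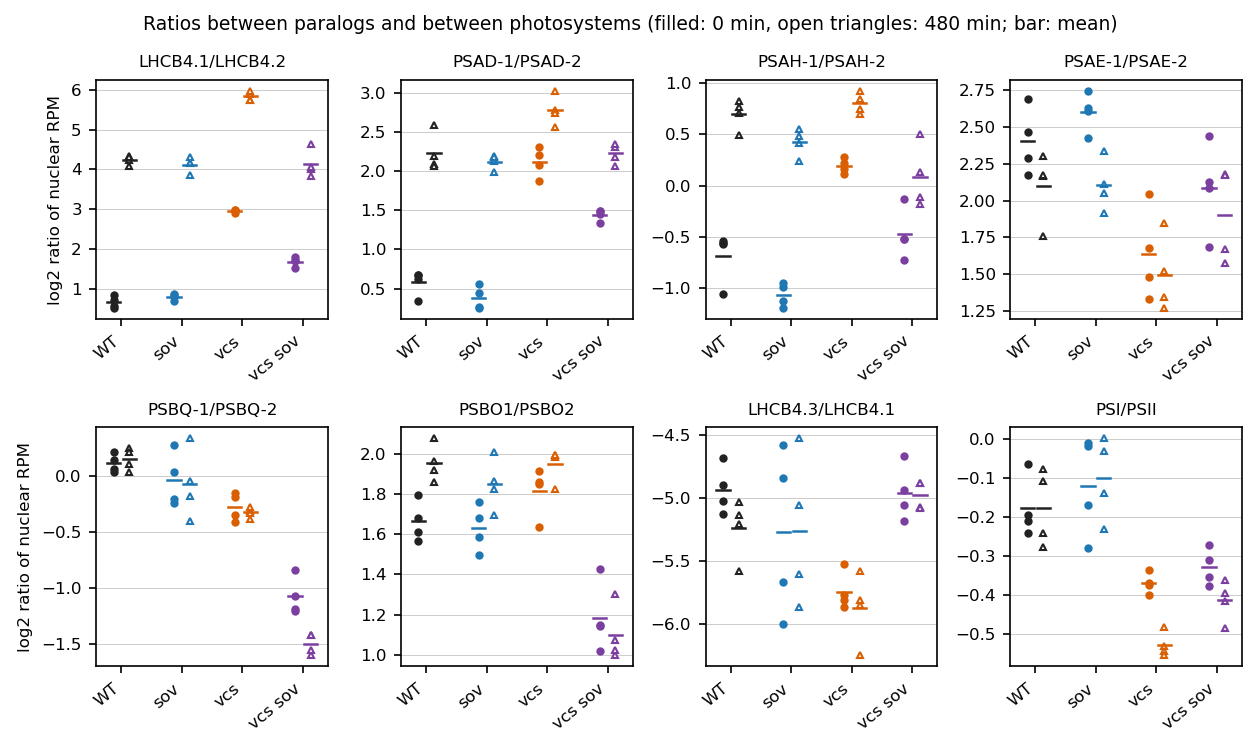
Log2 ratio of nuclear RPM for PSI to PSII sums and for the 7 paralog pairs, 1 panel each, by genotype; filled points are the 4 libraries at 0 min, open triangles those at 480 min, bars the means. LHCB4.1 to LHCB4.2 is 0.67 in WT and 2.96 in vcs at 0 min, and 4.24 and 5.84 at 480 min.

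After cordycepin, most members kept a larger share of nuclear reads than the median gene, and a few did not. As shares of nuclear reads, 480 against 0 min, 9 members were higher and 8 lower in WT (13.6% of all tested genes higher, 66.8% lower; limma over 19855 genes, adjusted p under 0.05). In sov 11 were higher and 8 lower (13.3% and 67.9%), in vcs 16 and 5 (12.8% and 65.6%) and in vcs sov 17 and 5 (17.7% and 47.4%). This fit treated libraries of the same genotype and replicate at different times as independent. The members' medians were 0.02, 0.16, 0.39 and 0.37, against −0.78, −0.83, −0.70 and −0.30 over all genes, and 27, 28, 29 and 26 of 31 stood above the median gene. These counts depend on the scale: on deposited RPM the members were 5 higher and 16 lower in WT and 5 and 13 for sov, and after centring on the nuclear median 24 and 2 in WT and 27 and 2 in sov. Over all genes the share of higher among calls was 16.9, 16.4, 16.3 and 27.2% on nuclear RPM, 7.71, 7.22, 8.52 and 18.6% on deposited RPM and 62.1, 62.7, 61.2 and 58.7% after centring.

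LHCB4.2 had the largest decrease from 0 to 480 min in every genotype, at −3.24 in WT, −2.94 for sov, −2.26 for vcs and −1.93 in vcs sov (SE 0.19, adjusted p 4.49e-30 to 7.48e-16 in limma). PSAD-2 was next, at −2.62 in WT, −2.67 for sov, −1.25 for vcs and −1.18 in vcs sov (SE 0.21, adjusted p 2.68e-21 to 1.05e-06 in limma). Both decreases were larger in WT and sov than in the vcs-7 genotypes by their values, and the difference was not tested at this time. PSAD-1, LHCA4 and LHCB6 were also lower at 480 min in all 4 genotypes on nuclear RPM, though after centring PSAD-1 was above 0 in all 4 and LHCA4 and LHCB6 in WT, sov and vcs. PSBR was among the genes that gained share, at 0.75 in WT, 0.63 for sov, 0.85 for vcs and 0.73 in vcs sov (SE 0.13, adjusted p 1.47e-08 to 1.3e-05 in limma), and so was PSAH-1, at 0.71 in WT, 0.89 for sov, 0.63 for vcs and 0.77 in vcs sov (SE 0.13, adjusted p 9.5e-10 to 6.05e-06 in limma). LHCB4.1, unlike its paralog, was higher in all 4 on nuclear RPM, at 0.32 in WT, 0.37 for sov, 0.61 for vcs and 0.50 in vcs sov, and at −0.0039 in WT on deposited RPM.

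To follow levels rather than shares, libraries were scaled to 50 reference genes. These had the highest mean slope of deposited RPM over 0 to 120 min, and the scaling takes them as not decaying. Their median slope before scaling was 0.32 log2 per h in WT, 0.36 for sov, 0.25 for vcs and 0.27 in vcs sov. Their RPM thus rose, and whether any were induced was not tested, so the percents and half-lives below rest on this choice. Outside the listed genes, the reference genes were picked by level and slope alone. Genes of ribosomal RNA or of stress responses were thus not kept out. A member's mean at 480 min had a median of 47.8% of its 0 min level in WT (range over members 4.99 to 79.3), 55.1% in sov (6.47 to 89.8), 89.5% in vcs (14.1 to 124) and 66.3% in vcs sov (13.2 to 88.8). LHCB4.2 had 4.99 ± 0.846% left in WT (SD, n = 4), 6.47 ± 1.89% for sov, 14.1 ± 0.946% for vcs and 13.2 ± 1.84% in vcs sov, while LHCB4.1 had 59.2 ± 10.2%, 62.9 ± 8.92%, 104 ± 11.3% and 72.8 ± 19.4%. PSAD-2 had 7.74 ± 1.99%, 7.61 ± 0.886%, 28.7 ± 4.34% and 22.9 ± 6.75%, and PSAD-1 24.0 ± 3.67%, 25.4 ± 2.99%, 45.3 ± 4.61% and 38.8 ± 9.30%. In these 2 pairs, chosen for parting most, the gene with the lower level in vcs at 0 min also kept the smaller share at 480 min, in all 4 genotypes. On this scaling the median in vcs was not a steady decline, at 72.5% at 120 min, 82.9% at 240 min and 89.5% at 480 min. That in vcs sov was 74.7, 68.4 and 66.3% at these times. The order of the 2 genotypes at 120 min was thus the reverse of that at 480 min. The authors' deposited scaled means instead had LHCB4.1 in vcs falling, at 91.9, 85.1 and 84.0% at these times. Its mean in vcs sov at 480 min was 87.4% there, above that in vcs. PSBR in vcs stood at 97.6, 97.6 and 99.5% in those means. In those means every member but PSBR was lower in vcs at 480 min than at 120 min. LHCA1, for example, stood at 76.6% and then 53.7%. At 480 min vcs sov was above vcs there for every member but PSAK, LHCB6, PSBQ-1 and PSBS. The rise in vcs and the order at 480 min thus depended on the scaling, for members well beyond LHCB4.1. At the first time after infiltration, 7.5 min, the members' median was already 83.7% in WT and 84.6% in vcs, but 94.3% in sov and 100% in vcs sov.

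**Figure D4:**
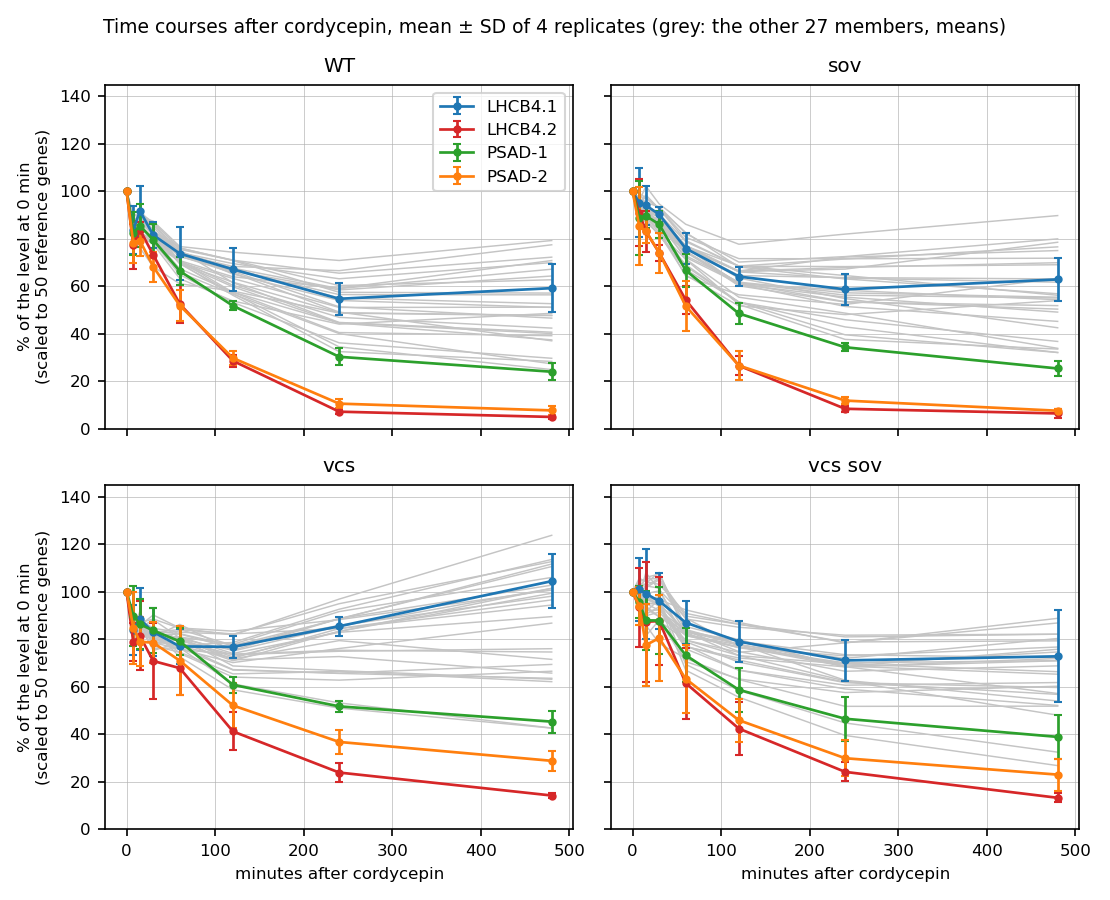
Mean level as a percent of 0 min (scaled to 50 reference genes) against time in min for the 31 members, 1 panel per genotype; LHCB4.1, LHCB4.2, PSAD-1 and PSAD-2 are coloured and the other 27 grey. LHCB4.2 ends at 4.99% in WT and 14.1% in vcs, where LHCB4.1 ends at 59.2% and 104%.

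At 480 min most members were still lower in the vcs-7 genotypes, with exceptions in vcs. PSBX, called lower in vcs than in WT at 0 min, had 781, 699, 755 and 754 nuclear RPM in WT replicates 1 to 4 at 480 min and 832, 938, 885 and 992 in those of vcs. Every vcs library of PSBX was thus above every WT library, and the difference of 0.28 (SE 0.14, adjusted p = 0.0696) did not pass in limma. PSBW (0.19) and PSAG (0.022) were also above 0 and did not pass. In vcs against WT 19 members were lower and 0 higher (17.3% of all tested genes lower and 41.2% higher; members' median −0.62, all genes +0.21; limma), with 4 of 4 PSI antenna genes and 0 of 5 of the other PSII genes among them. On deposited RPM 10 were lower and 6 higher and 11 members changed sign, PSBO1 (0.09) and PSBO2 (0.10) among those called, and after centring 29 were lower; the share of higher among all calls was 70.4%, 91.3% and 38.6% on the 3 scales. In vcs sov against sov 29 were lower and 0 higher (15.3% lower and 62.4% higher; median −0.92, all genes +0.64), all but PSBO2 and PSBX, but on deposited RPM 12 were lower and 2 higher and 9 members changed sign, 7 of them called lower on nuclear RPM and the others PSBO2 and PSBX, which were then called higher, with a share of higher calls of 80.3% on nuclear RPM, 93.8% on deposited RPM and 38.9% after centring. LHCB4.2 at 480 min had 112, 106, 109.9 and 108 nuclear RPM in WT, 141, 185, 105 and 116 for sov, 30.4, 30.7, 26.3 and 35.9 for vcs and 63.7, 63.0, 79.7 and 84.7 in vcs sov, with vcs the lowest of the 4 genotypes in every library.

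Slopes of log2 level on time from 0 to 120 min were fitted to each of the 16 courses (4 per genotype), scaled to the 50 reference genes, and half-lives are read from their means. The median over 15289 genes was −0.53 log2 per h in WT, −0.61 for sov, −0.43 for vcs and −0.38 in vcs sov, half-lives of 113, 98.9, 141 and 157 min. The members' medians were −0.28, −0.34, −0.17 and −0.22, half-lives of 217, 174, 344 and 269.8 min. Only LHCB4.2 and PSAD-2 were steeper than the median gene in WT and sov; 1 member was in vcs and 5 were in vcs sov. PSI and PSII medians in WT were −0.26 and −0.31.

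LHCB4.2 had slopes of −0.79, −0.78, −0.87 and −0.97 log2 per h in WT replicates 1 to 4, −0.85, −1.12, −0.81 and −0.99 for sov, −0.58, −0.41, −0.54 and −0.69 for vcs and −0.67, −0.83, −0.51 and −0.54 in vcs sov. Its half-life was 70.1 min in WT and 108 min in vcs, the shortest of the members in both. PSAD-2 had −0.70, −0.78, −0.85 and −0.93 in WT, −0.97, −1.15, −0.77 and −0.88 for sov, −0.40, −0.28, −0.37 and −0.58 for vcs and −0.46, −0.61, −0.40 and −0.70 in vcs sov, a half-life of 73.7 min in WT and 148 min in vcs. For both genes every WT course was steeper than every vcs course. At the slow end in WT were PSBR, with −0.24, −0.16, −0.23 and −0.15 and a half-life of 307 min, and PSAE-1, with −0.19, −0.19, −0.16 and −0.27 and 293 min. Their half-lives exceed the 120 min over which the slopes were fitted.

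In vcs against WT the slope was less steep for 10 members and steeper for 0 (limma on the slopes, adjusted p under 0.05), where 29.6% of all tested genes were less steep and 3.62% steeper, and the members' median difference was 0.11 log2 per h against 0.10 over all genes. The members' share of calls, 10 of 31, was thus near that of all genes. PSAD-2 (0.41, SE 0.079, adjusted p = 0.000532) and LHCB4.2 (0.30, SE 0.075, adjusted p = 0.00405) differed most, then LHCB4.3 (0.25, SE 0.074, adjusted p = 0.0101), PSBQ-1, PSBX, PSAH-2, PSBQ-2, PSBW, PSAK and PSAO. The count was 6 without vcs replicate 2, 16 without vcs replicate 3, and 1 where the slopes were not scaled to reference genes. Of all calls 89.1% were less steep, and 69.7% without the reference scaling on deposited RPM.

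In vcs sov against sov the slope was less steep for 9 members and steeper for 0 (limma, adjusted p under 0.05), where 62.4% of all tested genes were less steep and 1.65% steeper, with a median difference of 0.11 against 0.21 over all genes. PSAD-2 (0.40, SE 0.079, adjusted p = 0.00021), LHCB4.2 (0.31, SE 0.075, adjusted p = 0.00137) and PSBX (0.21, SE 0.057, adjusted p = 0.00211), a low-mass PSII subunit, differed most. PSBX had slopes of −0.36, −0.47, −0.48 and −0.40 in sov and −0.29, −0.28, −0.20 and −0.076 in vcs sov. At the other end, LHCB6 (−0.015, SE 0.056, adjusted p = 0.819), PSAE-1 (0.022, SE 0.058, adjusted p = 0.741) and PSAK (0.04, SE 0.056, adjusted p = 0.527), a peripheral PSI subunit, did not pass. LHCB6 had slopes of −0.38, −0.58, −0.41 and −0.41 in sov and −0.53, −0.58, −0.37 and −0.37 in vcs sov, and PSAK −0.22, −0.38, −0.28 and −0.28 and −0.27, −0.27, −0.16 and −0.30, with overlapping courses in both. The count was 4 without sov replicate 2, 5 without vcs sov replicate 3 and 14 without vcs sov replicate 4, and 5 with both courses of the exchanged tubes left out.

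Slopes gave 0 calls among the members for vcs sov against vcs (6 at an unadjusted p under 0.05; 8.39% of all tested genes called in limma), for the interaction (0 unadjusted; 7.4%) and for sov against WT (0 unadjusted; 0% of all genes called, 2095 at an unadjusted p under 0.05). The window bears on this: over 0 to 240 min 24 members were called steeper in vcs sov than in vcs and 12 for the interaction, with 0 for sov against WT. In vcs against WT, 31 were called less steep over that window and 1 over 0 to 60 min. Shares over all tested genes are not given here for these windows, so these counts are not read as results about the members. These comparisons were fitted with limma alone. A missed threshold does not show that the slopes were equal. The direction among all calls was 85% less steep in vcs sov against vcs, and 96.6% without reference scaling on deposited RPM.

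**Figure D5:**
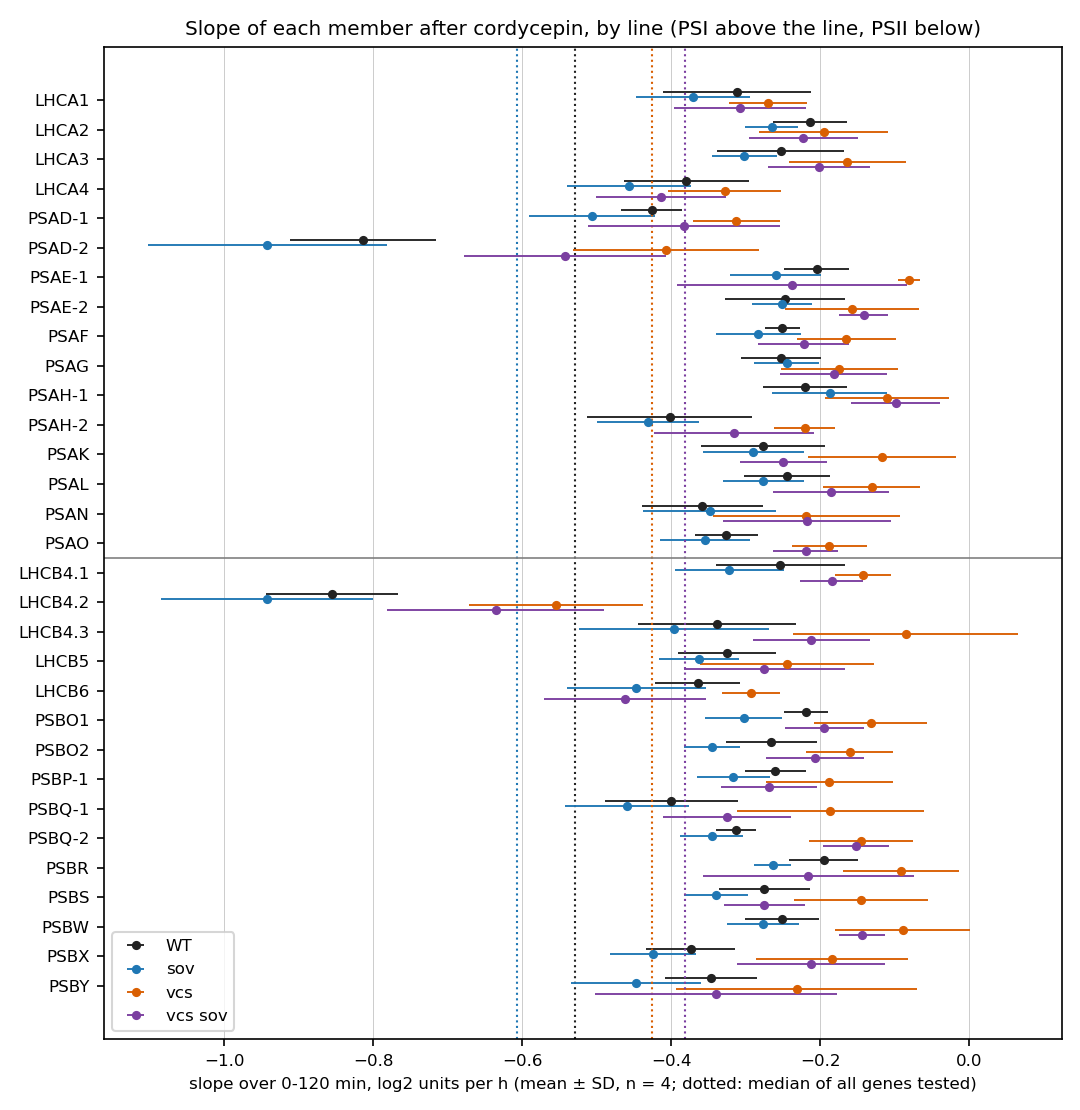
Slope of log2 level from 0 to 120 min (log2 per h, mean ± SD of 4 courses) for each member by genotype; dotted lines are the medians of all tested genes. LHCB4.2 and PSAD-2 are the steepest in WT, with half-lives of 70.1 and 73.7 min, against a median gene of 113 min.

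Other genes of the same machinery, listed by identifier, were read in the same fits at 0 min. Of 7 further nuclear photosystem genes 6 were tested; 5 were lower in vcs than in WT (median −0.61) and 6 were below sov in vcs sov (−1.07). The 9 genes of the major antenna, LHCB1 to LHCB3, had 6 lower and 1 higher in vcs against WT (−0.69), 9 lower in vcs sov against sov (−1.24), and 4 higher and 3 lower in vcs sov against vcs. LHCB1.4, at 0.57 (SE 0.22, adjusted p = 0.038 in limma), was the gene higher in vcs than in WT. The other LHCB1 genes stood between −0.69 and −0.16, while LHCB2.1 stood at −2.98, LHCB2.2 at −3.30, LHCB2.3 at −3.62 and LHCB3 at −2.53. The same LHCB2.1, LHCB2.2, LHCB2.3 and LHCB3 were the 4 higher in vcs sov than in vcs, by 1.17 to 2.51, the directions that LHCB4.2 took in both comparisons. These genes were named after their values were seen. The LHCB1 genes are close copies of each other, as are the LHCB2 genes, so how their reads divide between copies is uncertain. Of 10 nuclear genes for electron transport and ATP synthase, 7 were lower in vcs than in WT (−0.59) and 10 were below sov in vcs sov (−1.26). Plastid genes can be read on deposited RPM only, where the median gene stood at 0.49 in vcs against WT and 0.63 in vcs sov against sov. There 3 of 5 psa genes were lower in vcs than in WT (median −0.43) and 5 of 5 in vcs sov against sov (−0.78). For psb genes the counts were 11 of 15 (−0.52) and 14 of 15 (−1.04). On this scale reads outside nuclear genes fell as a whole. Nuclear genes took 49.1% of reads in WT and 63.2% in vcs, and 51.3% in sov and 73.5% in vcs sov. Whether these plastid genes fell more than other genes outside the nucleus was not tested. The shares of all genes called on this scale are not given, so these counts have no background beside them. Since the library kit selects RNA by removing ribosomal RNA, plastid transcripts without poly(A) tails are kept.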

How the data were processed

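RNA from whole seedlings was depleted of ribosomal RNA and sequenced from stranded TruSeq libraries, per the labels' protocols. The submitters' processing notes name TopHat2 2.0.12 with Bowtie2 2.2.3, HTSeq 0.6.1, SAMtools, FastQC, R 3.1.0 and the build TAIR10, without roles or settings, so the strand setting of the counting is not given in the sources used here and whether reads of overlapping antisense genes were kept apart is not known. The authors deposited RPM (reads scaled to library depth) per gene and library, and whole reads came back from them to within 1.77e-08 of a read. They also deposited RPKM at 0 min with 1 value per genotype, a ratio of each time's scaled mean to that at 0 min (not used in a test), log2 fold changes and their adjusted p-values at 0 min. These last are the authors' deposited DESeq2 results.

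From the RPM, nuclear RPM was computed over nuclear genes, and log2(nuclear RPM + 0.5) was fitted with limma 3.58.1 (trend and robust) in R 4.3.3, without a replicate block. The 0 min fit used 16 libraries and genes whose mean reached 1 RPM in at least 1 genotype, and the time fit the libraries of all genotypes and times. Slopes were fitted from 0 to 120 min within each of 16 courses, scaled to the 50 nuclear genes of at least 10 RPM, outside the listed genes, whose mean slope was highest, and compared with limma for genes of at least 2 RPM in every genotype. P-values were adjusted by Benjamini-Hochberg over all tested genes, with a threshold of 0.05. The 0 min and slope fits were tested on simulated data for their calls, and the time fit for the size of a planted change only. The simulated libraries were independent, without deviations shared within a course. The alternatives were other scalings, pseudocounts and filters, edgeR 4.0.16 on the recovered reads, other slope windows, a replicate block and leaving out each replicate. Leaving out both courses of the exchanged tubes was chosen after seeing the data.

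The members are set by gene identifier, but that set, the other gene lists and the tests were chosen with earlier results of these data known. Per-library values are printed for the members with the highest and lowest WT mean, the 3 most negative and 3 most positive in each 0 min comparison that involves vcs-7, both members of a paralog pair whose ratio moved by over 0.5 (log2), the 2 steepest and 2 slowest slopes in WT, and the 3 largest slope differences each way in vcs sov against sov. Other members are named with single values after those were seen, where they passed or lost a call. Promoter windows and coding sequences come from RefSeq TAIR10.1, whose nuclear chromosomes have the same accessions as TAIR10. The floor of 3 reads covers counting error only, while SDs and SEs are over libraries.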

Additional observations from a re-analysis of the deposited data

Results flagged for a closer look

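In groups of 4 libraries or courses, the gap between 1 value and the nearest of the others was compared with the group's range (Dixon's criterion). Of 280 groups examined, 20 went beyond it, and chance alone passes about 5% of groups. Among nuclear RPM at 0 min these were PSAG in WT replicate 3 (934, the others 1116 to 1144) and in vcs replicate 1 (1142), LHCB4.1 in vcs sov replicate 2 (953), PSBP-1 in vcs replicate 4 (1468), PSBQ-1 in WT replicate 2 (1206) and vcs replicate 4 (543), PSBR in vcs replicate 1 (3083, the others 2382 to 2424) and PSBX in WT replicate 2 (1435). Among slopes, in log2 per h, they were PSAD-1 in sov replicate 2 (−0.63), PSAE-2 in WT replicate 1 (−0.37), PSAK in WT replicate 2 (−0.15), PSAO in vcs sov replicate 3 (−0.15), LHCB4.3 in WT replicate 2 (−0.18), LHCB6 in WT replicate 2 (−0.28) and sov replicate 2 (−0.585), PSBS in WT replicate 2 (−0.18), PSBW in sov replicate 2 (−0.35) and PSBY in vcs replicate 4 (−0.47). Of these 10 slopes, 4 came from WT replicate 2 and 3 from sov replicate 2. Among log2 ratios at 0 min, WT replicate 4 stood apart for PSAD-1 to PSAD-2 (0.34, the others 0.63 to 0.68) and for PSAH-1 to PSAH-2 (−1.06, the others −0.57 to −0.55).

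The effect of vcs-7 at 0 min differed between the backgrounds with and without SOV, by the interaction term in limma, for 13 members (41.9%), near the 40.2% of all tested genes that passed. The term was above 0 for LHCB4.2 (0.90). It was below 0 for PSBQ-1 (−0.87), PSBR (−0.84), PSAG (−0.77), PSAE-2 (−0.62), LHCA3 (−0.61), PSAH-1 (−0.59), PSAL (−0.59), PSAN (−0.58), PSBW (−0.53), LHCB4.1 (−0.50), PSBO1 (−0.47) and PSBS (−0.37).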

How the results depend on the processing

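Counts are of the 31 members past an adjusted p of 0.05. They stand without shares over all tested genes, so they show how calls depend on processing and not traits of the members. On RPM as deposited they were 17 for vcs against WT, 12 for vcs sov against vcs (4 higher) and 7 for the interaction (2 higher) at 0 min; at 480 against 0 min they were 21 in WT and 18 in sov, each now mostly lower, and 14 (2 higher) for vcs sov against sov at 480 min. After centring on the nuclear median they were 26 in WT and 29 in sov for 480 against 0 min and 29 for vcs against WT at 480 min. Slopes gave, for vcs against WT and vcs sov against sov, 1 and 4 without reference scaling on deposited RPM, 1 and 2 (1 of these steeper) without it on nuclear RPM, and 1 and 1 over 0 to 60 min. Over 0 to 240 min vcs against WT gave 31, vcs sov against vcs 24 steeper and the interaction 12 steeper. With both courses of the exchanged tubes left out, vcs sov against sov gave 5. With genes weighted equally, the PSI to PSII log2 ratio differed by −0.039 between vcs and WT (−0.19 for sums) and by −0.085 between vcs sov and vcs (0.04 for sums). Apart from the scaling and the left-out courses, the cause was not tested.

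Leaving out each replicate gave 25 to 27 for vcs against WT, 31 to 31 for vcs sov against sov, 16 to 20 for vcs sov against vcs and 9 to 16 for the interaction at 0 min. The range was 16 to 17 in WT, 16 to 21 in sov, 20 to 22 in vcs and 17 to 23 in vcs sov for 480 against 0 min. At 480 min it was 17 to 20 for vcs against WT and 27 to 29 for vcs sov against sov. For slopes it was 6 to 16 for vcs against WT (6 without vcs replicate 2, 16 without vcs replicate 3), 4 to 14 for vcs sov against sov (4 without sov replicate 2, 5 without vcs sov replicate 3, 14 without vcs sov replicate 4) and 0 to 1 for vcs sov against vcs. EdgeR at 0 min gave 28, 31, 17 (2 higher) and 10 (2 higher) for the comparisons in the order above.

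Members called on nuclear RPM that changed sign did so under 2 scalings. On deposited RPM these were PSAE-2 (0.093) in vcs against WT and PSBO2 (0.044) in vcs sov against sov at 0 min, LHCB4.1 (−0.0039, WT) and LHCA3 (−0.019, sov) for 480 against 0 min, and at 480 min PSBO1 (0.093) and PSBO2 (0.10) in vcs against WT and PSAD-1 (0.28), PSAD-2 (0.18), PSAO (0.094), LHCB4.3 (0.14), PSBQ-2 (0.23), PSBW (0.093) and PSBY (0.30) in vcs sov against sov. After centring, 480 against 0 min was 0.27 for LHCA4, 0.049 for PSAD-1, 0.35 for PSAH-2, 0.10 for LHCB6, 0.67 for PSBP-1 and 0.24 for PSBX in WT. It was 0.54 for LHCA4, 0.14 for PSAD-1, 0.47 for PSAH-2, 0.47 for LHCB6, 0.54 for PSBX and 0.68 for PSBY in sov, 0.21 for LHCA4, 0.30 for PSAD-1 and 0.21 for LHCB6 in vcs, and 0.023 for PSAD-1 in vcs sov.

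The deviations of same-numbered libraries correlated over 0.1 in 18 of 24 library pairs at 0 min (range −0.10 to 0.45) and in 18 of 24 at 480 min (−0.20 to 0.40). Numbers were to count as pairing only where every pair exceeded 0.1. At 0 min that held for sov with vcs sov and for none of the other pairs of genotypes. At 480 min it held for sov with vcs and for WT with vcs sov, and for none of the others. Some shared deviation is thus present, and at 0 min the fit with a block called the same number, 31, for vcs sov against sov. With a replicate block the 0 min counts were 27, 31, 19 and 14, those for 480 against 0 min 18, 20, 22 and 24, those at 480 min 20 and 29 and the slope counts 10 and 9.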
